A study of Homo sapiens with 18 samples.

Results

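The RNA levels of 8 genes that write DNA methylation, remove it or supply the enzymes that remove it were followed in 3 human acute myeloid leukaemia cell lines. The genes were DNMT1, DNMT3A, DNMT3B, TET1, TET2, TET3, IDH1 and IDH2. They were chosen by symbol, and all 8 were matched by Ensembl gene ID among 40184 genes. Molm-14 and MV4-11 carry FLT3-ITD, an internal tandem duplication in the receptor tyrosine kinase gene FLT3, and SKNO-1 carries the substitution N822K in the receptor gene KIT, per the labels. Cultures of each line received the vehicle DMSO or 500 nM RMC-4550 for 24 h. RMC-4550 is an allosteric inhibitor of SHP2, the phosphatase encoded by PTPN11 that couples receptor tyrosine kinases to RAS. Each of the 6 groups had 3 cultures, titled as biological replicates, which made 18 in all. SKNO-1 received GM-CSF at 10 ng/mL in both of its groups and the other lines did not, so line, genotype and growth factor cannot be told apart in a comparison with SKNO-1. Every group is 1 established line, and sequence variants in the 8 genes were not analysed here.

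DNMT1 copies CpG methylation onto the new strand after DNA replication, with UHRF1 bringing it to half-methylated sites, whereas DNMT3A and DNMT3B methylate sites that carried no mark. TET1, TET2 and TET3 oxidise methylated cytosine, a step towards its removal, and they use 2-oxoglutarate as a co-substrate. IDH1 in the cytosol and IDH2 in mitochondria make 2-oxoglutarate from isocitrate, and mutant forms of either found in leukaemia make 2-hydroxyglutarate, which inhibits the TET enzymes. DNMT3A, TET2, IDH1 and IDH2 are recurrently mutated in acute myeloid leukaemia.

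Poly(A) RNA was sequenced, and the reads assigned to genes, as recovered from the deposited values, summed to between 17434810 and 19959917 per library. Levels are given in CPM, reads of a gene scaled to a common library size after the submitters' scaling, and levels of different genes are compared only as CPM per kilobase of the longest annotated protein-coding transcript. A gene is called where the Benjamini-Hochberg adjusted p of the limma fit over all 18 libraries was under 0.05. Mitochondrial genes took 5.073% to 7.017% of the reads in 14 libraries. The share was higher in a treated Molm-14 culture (replicate 2, 15.017%), in a pair of MV4-11 DMSO cultures (replicates 1 and 3, 12.67% and 14.613%) and in a treated MV4-11 culture (replicate 1, 10.517%). Where values are listed by line, the order is Molm-14, MV4-11, SKNO-1. For each value below whose call changed without these 4 libraries, or which was called and moved by over 1.5 times, the value without them stands beside it. That fit kept a single MV4-11 DMSO culture (replicate 2). Its calls that involve MV4-11 therefore rest on a spread taken from the other groups. The 6 myeloid markers (CD33, SPI1, MPO, CEBPA, CSF3R and ITGAM) summed to 675.6 to 1424.9 CPM, and RUNX1T1, the partner gene of the t(8;21) fusion, was at 10.9 to 14.4 CPM in SKNO-1 and at most 0.0507 CPM in the other lines. The 4 T-cell markers each had 3 reads or fewer in every library, as had the B-cell marker MS4A1. The 4 erythroid markers summed to 0.283 to 2.5 CPM, with HBA1 at 3 reads or fewer. The 3 stromal markers summed to 3.61 to 14.8 CPM.

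Start regions are shown for DNMT1 and DNMT3B, the pair called lower with RMC-4550 in all 3 lines, and for TET1, the member whose level differed most between lines. RefSeq windows on GRCh38.p14 matched all 8 members, with 18 windows for the 8 genes. Each line gives the 250 bases before a listed start, 5′ to 3′ on the gene's strand, with every CpG in capitals, the site these enzymes methylate or oxidise.
DNMT1: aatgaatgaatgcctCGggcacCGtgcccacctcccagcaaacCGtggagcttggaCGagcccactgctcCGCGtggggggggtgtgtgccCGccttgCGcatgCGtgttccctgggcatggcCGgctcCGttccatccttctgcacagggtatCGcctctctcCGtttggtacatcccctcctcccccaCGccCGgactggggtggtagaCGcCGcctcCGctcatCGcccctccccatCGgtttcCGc
DNMT3B: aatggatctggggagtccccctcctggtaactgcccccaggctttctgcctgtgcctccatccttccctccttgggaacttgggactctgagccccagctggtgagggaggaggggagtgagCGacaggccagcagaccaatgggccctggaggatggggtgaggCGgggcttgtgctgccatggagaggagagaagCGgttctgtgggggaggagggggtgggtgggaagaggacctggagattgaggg
TET1: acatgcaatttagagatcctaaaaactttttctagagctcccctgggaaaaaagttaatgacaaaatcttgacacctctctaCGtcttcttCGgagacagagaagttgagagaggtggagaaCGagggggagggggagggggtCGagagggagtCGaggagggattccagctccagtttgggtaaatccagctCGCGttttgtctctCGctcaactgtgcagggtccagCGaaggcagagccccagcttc
The DNMT1 window (chr19:10194954-10195203, minus strand) holds 21 CpG sites, an observed-to-expected ratio of 0.77, against a median of 0.56 over 35114 RefSeq windows of the same length. The DNMT3B window (chr20:32779602-32779851, plus strand) holds 3, a ratio of 0.13. Its listed start lies 17467 bases inside the GENCODE gene, and the listed DNMT1 start lies 36333 bases inside its gene, so these windows need not be the starts used in these cells. Of 3 listed TET1 windows the first is shown. It (chr10:68560087-68560336, plus strand) holds 9, a ratio of 0.56. On both strands of the 18 windows, 5 motifs were searched. The E2F letters TTTCCCGC or TTTGGCGC, found in 1.93% of all windows, and the ETS letters CCGGAAG, found in 8.52%, matched none of the 18. The CCAAT box (CCAAT), found in 32.0% of all windows, matched the DNMT3B window shown. Among windows not shown it matched both other TET1 windows, a TET3 window and an IDH1 window. The GC box (GGGCGGG, in 31.5% of windows) and the E-box (CACGTG, in 6.35%) did not match the windows of DNMT1, DNMT3B or TET1. CpG-methylated DNA was not measured here.

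With DMSO, IDH2 was the most abundant of the 8 per kilobase in every line, at 112.7 ± 3.15, 126.4 ± 14.2 and 144.6 ± 4.02 CPM per kb (SD, n = 3). IDH1 followed in Molm-14 at 66.0 ± 0.529 CPM per kb, above DNMT1 at 51.3 ± 1.46. In MV4-11 IDH1 (51.1 ± 3.07 CPM per kb) and DNMT1 (49.0 ± 3.4) overlapped, and in SKNO-1 the order was turned, with DNMT1 at 51.4 ± 1.52 and IDH1 at 39.0 ± 1.18 CPM per kb. DNMT3B came next in Molm-14 (15.1 ± 0.41 CPM per kb) and MV4-11 (9.54 ± 0.986), and in SKNO-1 it lay below TET3 and TET2 at 3.7 ± 0.298. TET3 was read at 6.18 ± 0.226, 5.04 ± 1.18 and 8.09 ± 0.271 CPM per kb and TET2 at 5.32 ± 0.107, 3.94 ± 0.97 and 5.73 ± 0.472, and in MV4-11 these 2 neighbours overlapped. DNMT3A was at 2.54 ± 0.283, 2.18 ± 0.193 and 2.78 ± 0.0136 CPM per kb. TET1 was the least abundant, at 0.327 ± 0.0519 CPM per kb in Molm-14 and 0.386 ± 0.227 in MV4-11, and in SKNO-1 its 2.47 ± 0.348 overlapped with DNMT3A. The order of the genes within a line depends on the transcript length used. The longest and the median coding transcript are 5408 and 738.5 nt for DNMT1 and 9501 and 3589 nt for DNMT3A. Which transcripts these cells use was not tested.

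**Figure D1:**
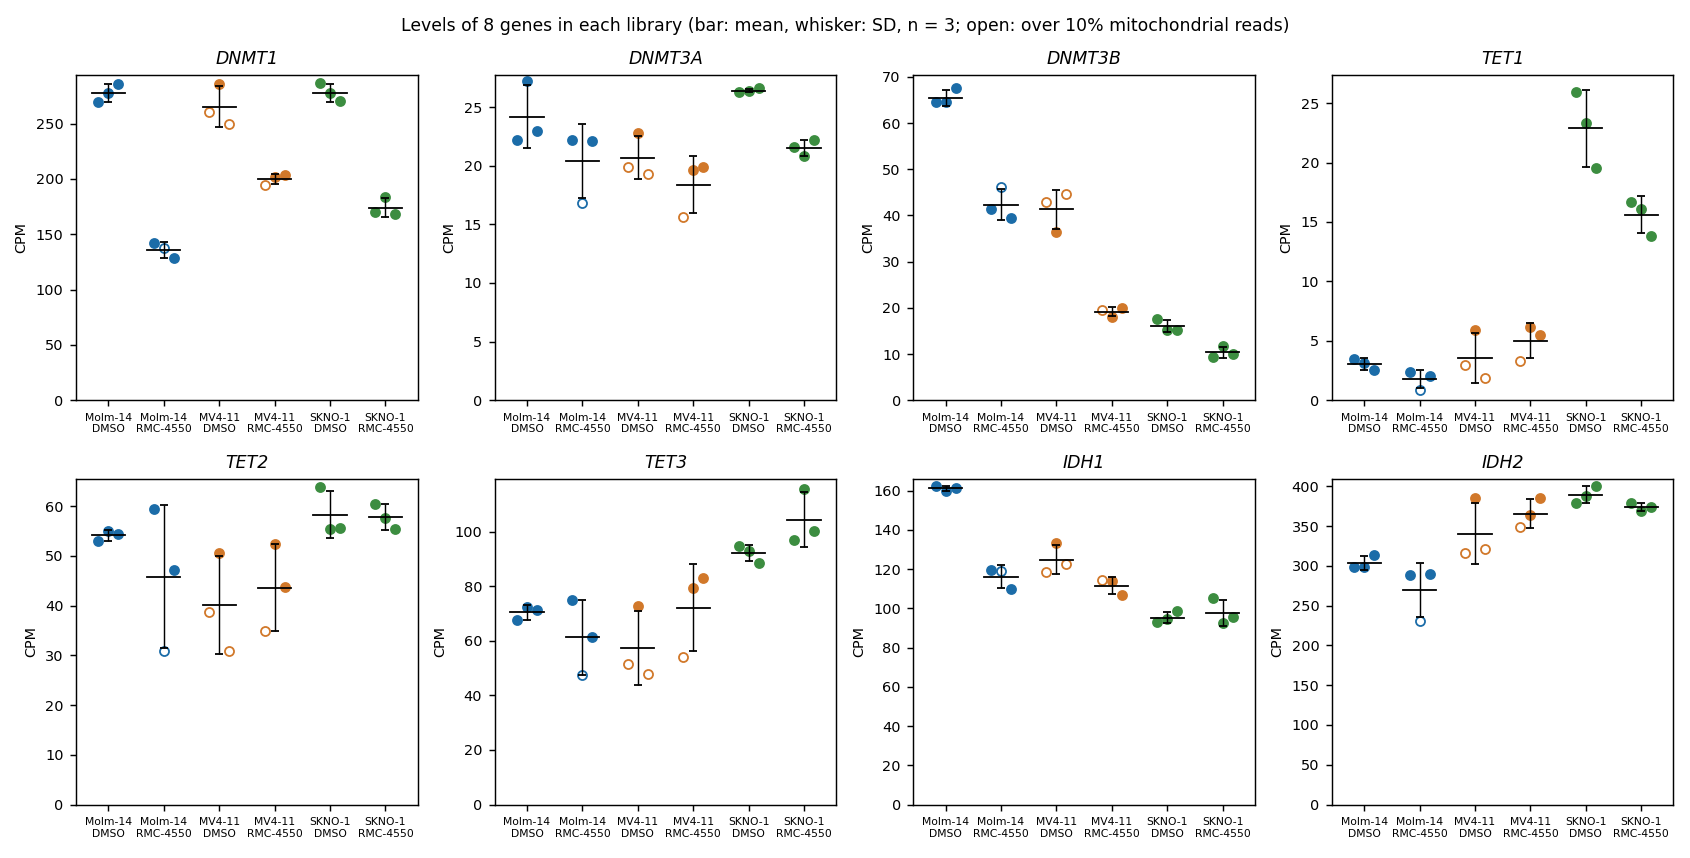
Level of each of the 8 genes in CPM (vertical axes, starting at 0) in the 18 libraries, by line and treatment; points are libraries, bars means and whiskers SD (n = 3), and open points are the 4 libraries with over 10% mitochondrial reads. DNMT1 and DNMT3B lie lower with RMC-4550 in all 3 lines without overlap, and the open points are the lowest TET2 and TET3 values of their groups.

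DNMT1 fell in all 3 lines with RMC-4550. In bulk RNA, fewer cells with a transcript and less of it per cell cannot be told apart. DNMT1 (ENSG00000130816; GRCh38 chr19:10133345-10231286, minus strand, GENCODE 29) is the maintenance methyltransferase. In Molm-14 it was read at 269.9, 277.3 and 285.6 CPM with DMSO and at 141.9, 137.5 and 128.2 CPM with RMC-4550. Every treated culture lay below every DMSO culture, and the log2 change was -1.03 (SE 0.07, limma adjusted p = 3e-08). In SKNO-1 it went from 286.5, 277.4 and 270.1 to 169.8, 183.9 and 168.7 CPM. These groups did not overlap either, with a log2 change of -0.68 (SE 0.07, limma adjusted p = 3.6e-06). In MV4-11 it went from 260.2, 285.5 and 249.8 to 195.0, 201.9 and 203.4 CPM. The treated cultures were again all lower, with a log2 change of -0.40 (SE 0.07, limma adjusted p = 0.0011). The MV4-11 call was lost when the line was fitted alone, where the adjusted p was 0.084. Without the 4 libraries of high mitochondrial share, the DNMT1 changes by line were -1.04, -0.50 and -0.68, all called.

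The size of the DNMT1 fall differed between the FLT3-ITD lines. The log2 change in MV4-11 was smaller than in Molm-14 by 0.63 (SE 0.10, limma adjusted p for the difference = 0.00082), and by 0.55 without the 4 libraries. SKNO-1 against the mean of the other lines gave a difference of 0.04 (95% interval -0.14 to 0.23, adjusted p = 0.94). With DMSO the DNMT1 levels of the lines were close. The log2 differences were -0.07 for MV4-11 against Molm-14 (95% interval -0.22 to 0.08), 0.00 for SKNO-1 against Molm-14 (-0.15 to 0.15) and 0.07 for SKNO-1 against MV4-11 (-0.08 to 0.22). S1PR2, a receptor gene annotated within the DNMT1 locus on the same strand, had at most 278 reads in a library, against at least 2146 for DNMT1.

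DNMT3B fell in all 3 lines as well, from levels that differed widely between them. DNMT3B (ENSG00000088305; chr20:32762385-32809356, plus strand) adds methyl groups to unmethylated sites and is known for its high level in early embryonic cells. In Molm-14 it went from 64.5, 64.5 and 67.6 CPM to 41.5, 46.1 and 39.5 CPM, without overlap (log2 change -0.63, SE 0.11, limma adjusted p = 0.00016). In MV4-11 it went from 42.9, 36.5 and 44.6 to 19.5, 18.1 and 20 CPM. These groups stood clear of each other, with a log2 change of -1.10 (SE 0.11, limma adjusted p = 3.6e-06). In SKNO-1 it went from 17.5, 15.2 and 15.3 to 9.39, 11.8 and 10.1 CPM, again with all treated cultures lower (log2 change -0.62, SE 0.11, limma adjusted p = 0.00035). Without the 4 libraries the DNMT3B changes were -0.69, -0.94 and -0.62, all called.

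With DMSO, DNMT3B was lower in MV4-11 than in Molm-14 by 0.67 on the log2 scale (fold 0.629, limma adjusted p = 6.6e-05) and lower in SKNO-1 than in Molm-14 by 2.03 (fold 0.245, adjusted p = 5.7e-11). SKNO-1 also lay below MV4-11, with a log2 difference of -1.36 (adjusted p = 3.5e-08). No DMSO groups of any pair of lines overlapped for DNMT3B. Its fall was larger in MV4-11 than in Molm-14 by 0.47 (SE 0.15, limma adjusted p for the difference = 0.038). That difference was -0.25 without the 4 libraries (adjusted p = 0.32), and it lost its call in 13 of 29 alternatives. So DNMT1 fell more in Molm-14 and DNMT3B was called as falling more in MV4-11, the latter only with the high-share libraries in the fit.

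DNMT3A did not pass the test in any line. DNMT3A (ENSG00000119772; chr2:25227855-25342590, minus strand), the other de novo methyltransferase, was read in Molm-14 at 22.2, 27.2 and 23 CPM with DMSO and at 22.2, 16.8 and 22.1 with RMC-4550 (log2 change -0.25, 95% interval -0.52 to 0.02, limma adjusted p = 0.11). The groups overlapped, and the lowest value was the library with the highest mitochondrial share, without which the change was -0.12. In MV4-11 it was at 19.9, 22.8 and 19.3 and then 15.6, 19.6 and 19.9 CPM, which also overlapped (log2 change -0.17, adjusted p = 0.42). In SKNO-1 the DMSO cultures were at 26.3, 26.4 and 26.6 CPM and the treated cultures at 21.6, 20.8 and 22.2. They did not overlap, and the log2 change was -0.30 (95% interval -0.56 to -0.03, limma adjusted p = 0.094). DNMT3A in SKNO-1 was called in 4 alternatives: fitting that line alone (adjusted p = 0.0024), with a covariate for the mitochondrial share of each library (0.0075), without the 4 libraries (0.0029), none of which is from SKNO-1, and without only the treated Molm-14 culture of high share (0.041). In MV4-11 it was called with the covariate (-0.30, adjusted p = 0.011).

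The balance of the de novo enzymes differed between the lines. Per length, the DMSO ratio of DNMT3B to DNMT3A within a library was 5.99 ± 0.694 for Molm-14, 4.43 ± 0.812 for MV4-11 and 1.33 ± 0.113 for SKNO-1 (SD, n = 3), with no overlap between lines. With RMC-4550 the ratios were 4.67 ± 1.17, 2.32 ± 0.377 and 1.06 ± 0.154. The treated and DMSO ratios did not overlap in MV4-11 and SKNO-1, and overlapped in Molm-14 through the library of highest mitochondrial share, at 6.01. With DMSO the DNMT1 to DNMT3A ratio was 20.3 ± 2.14, 22.6 ± 0.473 and 18.5 ± 0.638, and with RMC-4550 it was 11.9 ± 2.19, 19.3 ± 2.32 and 14.2 ± 1.13. These ratios are descriptions, since 3 libraries against 3 were not tested for them. Their size, and whether they lie above 1, depends on the transcript lengths used, whereas their comparison between lines or treatments does not.

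**Figure D2:**
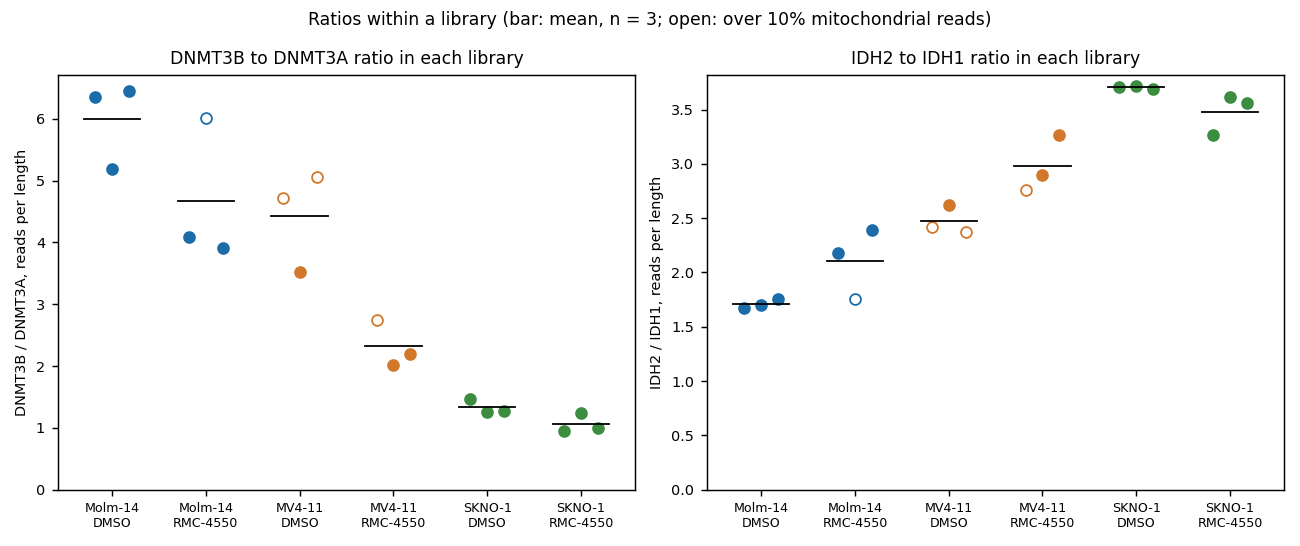
Ratio of DNMT3B to DNMT3A (left) and of IDH2 to IDH1 (right) within each library, as reads per length of the longest coding transcript; bars are means of 3, and open points are libraries with over 10% mitochondrial reads. With DMSO the DNMT3B to DNMT3A ratio was 5.99 in Molm-14 and 1.33 in SKNO-1, while the IDH2 to IDH1 ratio was 1.71 and 3.71.

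TET1 was mainly a SKNO-1 transcript. TET1 (ENSG00000138336; chr10:68560656-68694482, plus strand) was read with DMSO at 25.9, 23.3 and 19.5 CPM in SKNO-1. It was read at 3.44, 3.17 and 2.51 CPM in Molm-14 and at 2.96, 5.93 and 1.86 CPM in MV4-11, which rest on 45 to 62 and 31 to 116 reads. SKNO-1 lay above both without overlap, by 2.90 on the log2 scale against Molm-14 (fold 7.49, SE 0.38, limma adjusted p = 4.6e-06) and by 2.82 against MV4-11 (fold 7.06, adjusted p = 2.3e-05). Without the 4 libraries these differences were 2.90 and 1.94, both called. MV4-11 and Molm-14 did not differ by the test (0.08, 95% interval -0.72 to 0.89, adjusted p = 0.86). TET1 was called higher in MV4-11 than in Molm-14 without the 4 libraries, by 0.97 (adjusted p = 0.00077) with a single MV4-11 DMSO culture left, and with the covariate, by 0.92 (adjusted p = 0.00026).

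With RMC-4550, TET1 in SKNO-1 was at 16.7, 16.1 and 13.8 CPM, below every DMSO culture. The log2 change of -0.55 (95% interval -1.36 to 0.25) missed the threshold (limma adjusted p = 0.31). It was called when SKNO-1 was fitted alone (adjusted p = 0.0013), with the covariate (0.014) and without the 4 libraries (0.0036). In Molm-14 TET1 was at 2.40, 0.897 and 2.04 CPM with RMC-4550, from 14 to 44 reads, also below every DMSO culture (log2 change -0.87, adjusted p = 0.072). Without the 4 libraries, of which 1 is the treated culture at 0.897 CPM, the change was -0.44 and called (adjusted p = 0.025). In MV4-11 it was at 3.33, 6.18 and 5.53 CPM, overlapping with DMSO (log2 change 0.60, adjusted p = 0.36), and without the 4 libraries the change was -0.02. Leaving out 1 library at a time gave 0.21 to 1.04, and the highest, without the DMSO culture at 5.93 CPM, was called (adjusted p = 0.048).

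TET2 showed no called change with RMC-4550. TET2 (ENSG00000168769; chr4:105145875-105279816, plus strand), the TET gene most often mutated in myeloid disease, was read in SKNO-1 at 63.8, 55.4 and 55.6 CPM with DMSO and at 60.5, 57.7 and 55.3 with RMC-4550 (log2 change -0.01, 95% interval -0.45 to 0.43, limma adjusted p = 0.98). In Molm-14 it was at 52.9, 55.0 and 54.4 and then 59.5, 30.9 and 47.1 CPM (log2 change -0.29, adjusted p = 0.26). In MV4-11 it was at 38.7, 50.5 and 30.9 and then 34.8, 52.3 and 43.8 CPM (log2 change 0.13, adjusted p = 0.74). The groups overlapped in all 3 lines. The 4 lowest values, 30.9 to 38.7 CPM, were the 4 libraries of high mitochondrial share, and without them the Molm-14 and MV4-11 changes were -0.03 and -0.08. With DMSO, TET2 was called higher in SKNO-1 than in MV4-11 (log2 difference 0.57, adjusted p = 0.037). That call was lost in 10 of 29 alternatives, and the difference was 0.20 without the 4 libraries.

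TET3 (ENSG00000187605; chr2:73986404-74108176, plus strand), the member best known from the zygote and from neural cells, was highest in SKNO-1. Its DMSO cultures were at 94.7, 93.1 and 88.7 CPM there, at 67.5, 72.3 and 71.4 in Molm-14 and at 51.5, 72.8 and 48.0 in MV4-11. The excess of SKNO-1 over MV4-11 was 0.71 on the log2 scale (SE 0.18, limma adjusted p = 0.0058) and 0.34 without the 4 libraries, still called. Over Molm-14 it was 0.39 without overlap (adjusted p = 0.071), and it was called without the 4 libraries (adjusted p = 0.00013). With RMC-4550, TET3 in SKNO-1 was at 97.0, 115.8 and 100.3 CPM, above every DMSO culture (log2 change 0.18, 95% interval -0.21 to 0.56, adjusted p = 0.52). It was called higher there when SKNO-1 was fitted alone (adjusted p = 0.042) and with the covariate (0.043). In Molm-14 it was at 75.0, 47.5 and 61.4 CPM (log2 change -0.22, adjusted p = 0.32) and in MV4-11 at 53.9, 79.2 and 83.2 (log2 change 0.33, adjusted p = 0.28). These changes were -0.05 and 0.16 without the 4 libraries, not called. Both groups overlapped with DMSO, and the 4 lowest TET3 values, 47.5 to 53.9 CPM, were again those 4 libraries. The part of the mitochondrial share in these changes was not tested beyond the values given.

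**Figure D3:**
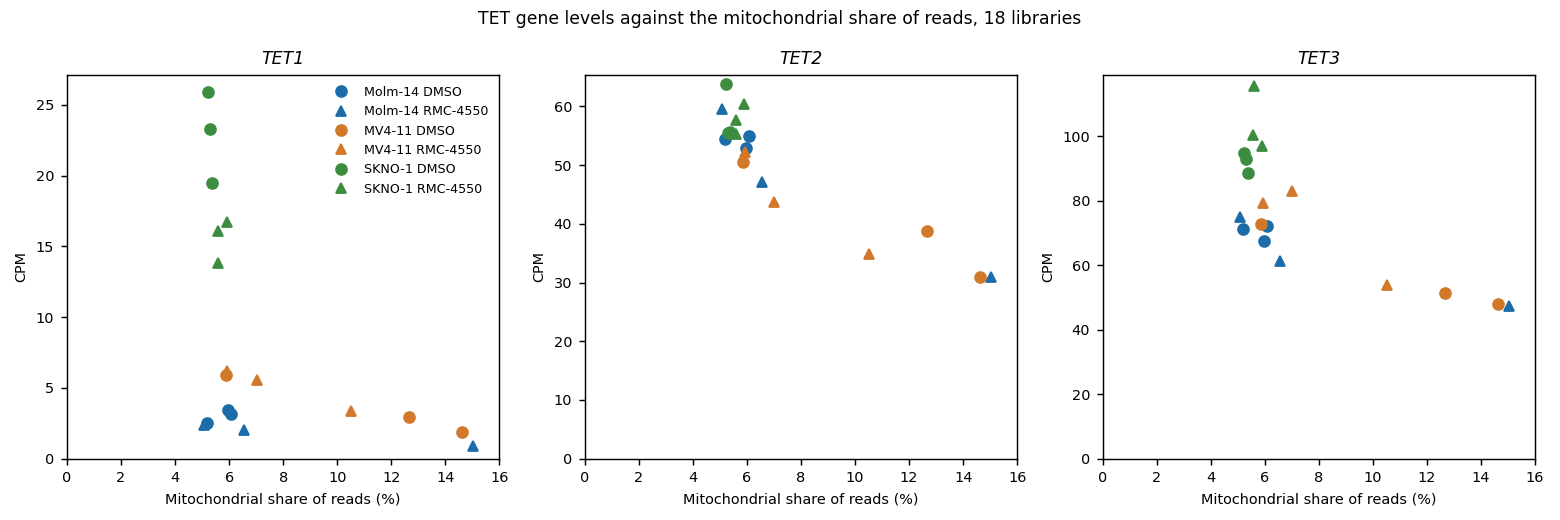
Level of TET1, TET2 and TET3 in CPM (vertical axes) against the share of reads in mitochondrial genes in percent (horizontal axes) in the 18 libraries; circles are DMSO, triangles RMC-4550 and colours the lines. The 4 libraries above 10% hold the 4 lowest TET2 values (30.9 to 38.7 CPM) and the 4 lowest TET3 values (47.5 to 53.9 CPM).

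IDH1 fell in Molm-14 with RMC-4550. IDH1 (ENSG00000138413; chr2:208236227-208266074, minus strand) encodes the cytosolic enzyme. It went from 162.2, 159.7 and 161.5 to 119.6, 119.2 and 109.6 CPM there, without overlap (log2 change -0.47, SE 0.07, limma adjusted p = 7.2e-05), and the change was -0.49 without the 4 libraries. In MV4-11 it went from 118.6, 133.1 and 122.6 to 114.5, 113.7 and 106.6 CPM. All treated cultures were lower, but the log2 change of -0.16 (95% interval -0.31 to -0.01) was not called (adjusted p = 0.17). It was called without the 4 libraries (-0.27, adjusted p = 0.02) and with the covariate (-0.17, adjusted p = 0.045). In SKNO-1 it was at 92.8, 94.6 and 98.4 and then 105.2, 92.3 and 95.4 CPM, which overlapped (log2 change 0.03, 95% interval -0.12 to 0.19, adjusted p = 0.78). The response of SKNO-1 was higher than the mean response of the FLT3-ITD lines by 0.35 (SE 0.09, limma adjusted p for the difference = 0.034). That call was lost in 13 of 28 alternatives, though without the 4 libraries the difference was 0.42 and called (adjusted p = 0.001). MV4-11 against Molm-14 differed by 0.31 (adjusted p = 0.043), which was lost in 19 of 29 alternatives and was 0.22 without the 4 libraries (adjusted p = 0.16).

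With DMSO, IDH1 was highest in Molm-14 and lowest in SKNO-1. MV4-11 lay below Molm-14 by 0.37 on the log2 scale (limma adjusted p = 0.00047), and SKNO-1 lay 0.76 below Molm-14 (adjusted p = 1.1e-07) and 0.39 below MV4-11 (adjusted p = 5e-04). No pair of lines overlapped. IDH2 (ENSG00000182054; chr15:90083045-90102504, minus strand), the mitochondrial enzyme, had the reverse order of means. Its DMSO cultures were at 298.6, 298.8 and 313.4 CPM in Molm-14, at 316.3, 384.7 and 320.8 in MV4-11 and at 379.4, 388.3 and 400.9 in SKNO-1. SKNO-1 exceeded Molm-14 by 0.36 (adjusted p = 0.0032), whereas the steps from Molm-14 to MV4-11 (0.16, adjusted p = 0.16) and from MV4-11 to SKNO-1 (0.20, adjusted p = 0.1) were not called. Without the 4 libraries MV4-11 exceeded Molm-14 by 0.34, and SKNO-1 exceeded MV4-11 by 0.02. The single MV4-11 DMSO culture then left was the highest of its group, at 384.7 CPM. With all MV4-11 cultures kept, the excess over Molm-14 was called with the covariate (0.33, limma adjusted p = 4.1e-05). It was also called under quantile normalization (0.30, limma adjusted p = 0.0041), whereas 26 of 29 alternatives left it uncalled. Within a library, the ratio of IDH2 to IDH1 per length by line was 1.71 ± 0.0462, 2.47 ± 0.132 and 3.71 ± 0.0139 with DMSO and 2.11 ± 0.325, 2.98 ± 0.266 and 3.48 ± 0.189 with RMC-4550.

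IDH2 showed no called change with RMC-4550 in any line. Treated Molm-14 cultures were at 288.5, 231.2 and 289.5 CPM, treated MV4-11 cultures at 348.5, 363.9 and 384.8 and treated SKNO-1 cultures at 379.0, 368.6 and 374.5. The treated cultures were all below DMSO in Molm-14 (log2 change -0.18, 95% interval -0.38 to 0.02, limma adjusted p = 0.13). The same held for SKNO-1, with a log2 change of -0.06 (adjusted p = 0.7). In MV4-11 they overlapped with DMSO (0.11, adjusted p = 0.52), and the change was -0.04 without the 4 libraries. In Molm-14 the lowest IDH2 value, 231.2 CPM, was the library with 15.017% mitochondrial reads, and without it the change was -0.07.

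Counted over the members, RMC-4550 lowered 3 of 8 in Molm-14 (DNMT1, DNMT3B and IDH1), where 46.7% of all genes tested were called, 25.2% lower and 21.5% higher. It lowered 2 of 8 in MV4-11 (DNMT1 and DNMT3B), where 13.9% of genes were called, 8.03% lower and 5.85% higher, and the same 2 of 8 in SKNO-1, where 27.1% were called, 16.2% lower and 10.8% higher. No member was called higher with RMC-4550 in any line. Of all calls in SKNO-1, 40% were higher with the deposited scaling and 50.4% with median-ratio scaling, and the DNMT1 and DNMT3B calls held with both. The treated and DMSO groups did not overlap for 5, 3 and 6 members by line, against 60%, 24.6% and 62% of the genes tested. The median log2 change of the members was -0.38, -0.03 and -0.18 by line, and that of all genes tested was -0.06, -0.01 and -0.05.

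Between lines with DMSO, DNMT3B and IDH1 were lower in MV4-11 than in Molm-14, where 54.1% of genes were called and 27.9% were lower. Against Molm-14, SKNO-1 had TET1 and IDH2 higher and DNMT3B and IDH1 lower, where 65.2% of genes were called, 32.5% higher and 32.7% lower. Against MV4-11, SKNO-1 had DNMT3A, TET1, TET2 and TET3 higher and DNMT3B and IDH1 lower, where 41.6% were called, 19.4% higher and 22.2% lower. The DNMT3A difference was 0.36 (limma adjusted p = 0.032) and lost its call in 8 of 29 alternatives, with 0.22 without the 4 libraries (adjusted p = 0.11). The difference in response between MV4-11 and Molm-14 was called for DNMT1 and IDH1 (higher) and DNMT3B (lower), where 19.5% of genes were called, 9.12% higher and 10.3% lower. Between SKNO-1 and the mean of the other lines it was called for IDH1, where 3.8% of genes were called and 1.35% were higher.

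**Figure D4:**
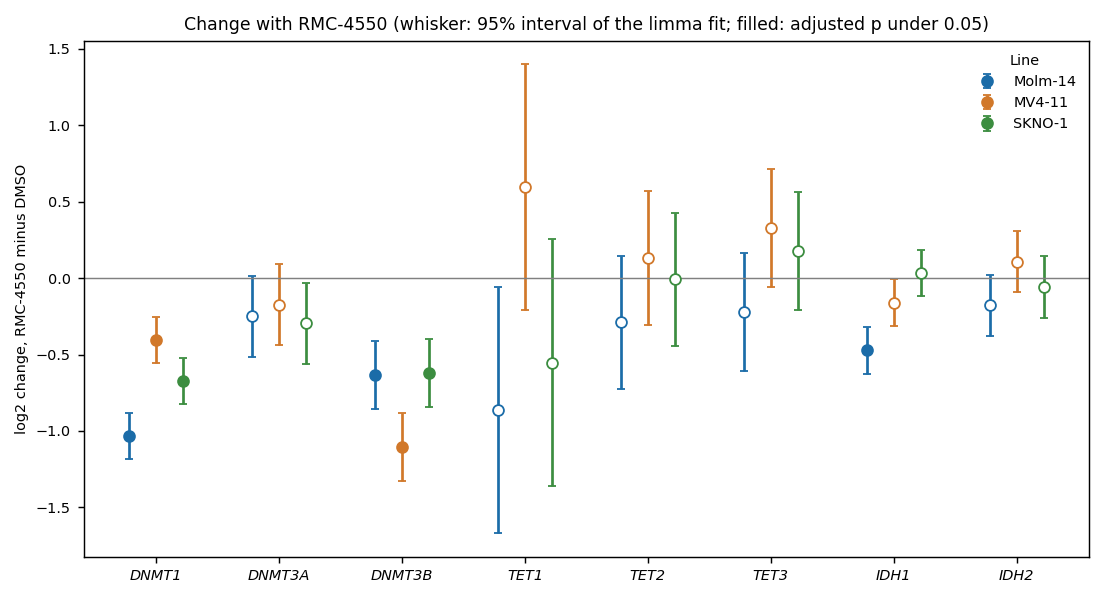
Log2 change with RMC-4550 against DMSO (vertical axis) for the 8 genes for Molm-14, MV4-11 and SKNO-1; points are the limma estimates, whiskers their 95% intervals, and filled points have an adjusted p under 0.05. The filled points are DNMT1 and DNMT3B in all 3 lines and IDH1 in Molm-14, all below 0, and the TET1 intervals are the widest.

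UHRF1 and HELLS fell with DNMT1 in all 3 lines. Of 13 genes for maintenance and reading of methylation, 11, 12 and 12 were tested by line, and 4, 3 and 3 were called lower against 1, 1 and 2 higher (median log2 change -0.26, 0.00 and -0.03). Over all genes tested, 25.2%, 8.03% and 16.2% were called lower by line and 21.5%, 5.85% and 10.8% higher. UHRF1, which binds half-methylated CpG sites and recruits DNMT1, stood at 48.4 ± 2.63, 58.7 ± 2.23 and 59.2 ± 1.69 CPM by line with DMSO and at 19.9 ± 0.559, 37.1 ± 1.4 and 18.1 ± 1.1 with RMC-4550 (SD, n = 3). Its log2 changes were -1.28, -0.66 and -1.71, with limma adjusted p of 4.7e-09, 1.9e-05 and 6.2e-10. HELLS, a chromatin remodeller needed for methylation of repeats, changed by -1.26, -0.99 and -1.88 and was called in all 3 lines. Among the readers, the methyl-CpG binding zinc-finger gene ZBTB33 rose in MV4-11 (log2 change 0.71, adjusted p = 0.028) and SKNO-1 (0.60, adjusted p = 0.035), although the MV4-11 groups overlapped. Its change for Molm-14 was -0.41 (adjusted p = 0.11). The ZBTB33 changes by line were -0.19, 0.32 and 0.60 without the 4 libraries, and those in Molm-14 and SKNO-1 were called. In these lines the list then had 5 and 4 genes lower and 2 and 3 higher. Over all genes in that fit, 31.3% and 32.1% were lower there and 27.7% and 21.2% higher. ZBTB4 rose by 0.32 in Molm-14 and 0.21 in SKNO-1.

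Of 12 genes for base excision and partners of TET enzymes, 10 were tested in each line, and 2, 1 and 1 were called lower and 3, 0 and 0 higher (median log2 change -0.17, 0.02 and 0.06). The shares of all genes called were 25.2%, 8.03% and 16.2% lower and 21.5%, 5.85% and 10.8% higher. WT1, a transcription factor that binds TET2 and TET3, fell in Molm-14 from 42.5 ± 1.03 to 17 ± 3.47 CPM (log2 change -1.34, limma adjusted p = 4.2e-05) and in SKNO-1 from 16 ± 0.71 to 6.79 ± 0.576 (-1.24, adjusted p = 0.00017). In MV4-11 its change was -0.53 without overlap (adjusted p = 0.083), and it was called lower there without the 4 libraries (-0.97, adjusted p = 1.6e-05) and with the covariate (-0.78, adjusted p = 2.9e-06). The DNA glycosylase gene NEIL1 rose in Molm-14 from 12.3 ± 0.774 to 24.3 ± 3.05 CPM (log2 change 0.97, adjusted p = 2.4e-05). GADD45A, a stress-response gene, was called lower in MV4-11 (log2 change -0.66, adjusted p = 0.0032) and Molm-14 (-1.01). Thymine DNA glycosylase (TDG), which removes TET products, changed by -0.23, -0.38 and -0.24, not called. Its changes were -0.41, -0.29 and -0.24 without the 4 libraries, called lower in all 3 lines (limma adjusted p = 8.9e-05, 0.026 and 0.0039). With the covariate it was called in Molm-14 and SKNO-1 (adjusted p = 0.00012 and 0.0057) and not in MV4-11 (0.053). Without the 4 libraries the list as a whole had 3 and 2 genes lower and 3 and 4 higher in Molm-14 and SKNO-1. Over all genes in that fit, 31.3% and 32.1% were lower in these lines and 27.7% and 21.2% higher. The list median in MV4-11 was then -0.02.

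More genes for methyl donor (S-adenosylmethionine) supply, and around 2-oxoglutarate and the citric acid cycle, were called lower in Molm-14 than in the other lines. The difference in number was not tested. Gene by gene, the MV4-11 response was called higher than that of Molm-14 for 2 of 8 methyl donor genes and lower for 0. Of 25 genes around 2-oxoglutarate, 3 were higher and 1 lower, against 9.12% and 10.3% of all genes. The SKNO-1 response against the mean of the other lines was called for 0 of the 8 and lower for 1 of the 25. Of 8 genes for methyl donor supply, 7, 0 and 2 were called lower by line, against 25.2%, 8.03% and 16.2% of all genes tested, and none higher (median log2 change -0.71, -0.09 and -0.30). MTR, the methionine synthase, fell in SKNO-1 from 83.2 ± 2.89 to 55.1 ± 2.93 CPM (log2 change -0.60, limma adjusted p = 0.004). MAT2A, which makes S-adenosylmethionine, was called lower in Molm-14 (log2 change -1.13, adjusted p = 0.032), where its treated cultures were at 136.9, 33.2 and 118.9 CPM. The lowest was the library with 15.017% mitochondrial reads, without which the change was -0.48 (adjusted p = 7.4e-06). Of 25 genes around 2-oxoglutarate and the citric acid cycle, 15, 3 and 8 were called lower by line, and 1, 0 and 0 higher (median -0.60, -0.02 and -0.31). Fumarate hydratase (FH) stood at 119.6 ± 1.65, 70.4 ± 11.1 and 64.0 ± 2.05 CPM by line with DMSO and at 60.8 ± 12, 53.1 ± 2.79 and 39.4 ± 0.85 with RMC-4550, and was called lower in all 3. In MV4-11 its log2 change was -0.40, and -0.64 without the 4 libraries. SUCLG1, a subunit of succinate-CoA ligase, was also called lower in all 3, by 0.59, 0.35 and 0.49 on the log2 scale. IDH3A, a subunit of the NAD-dependent isocitrate dehydrogenase, had a log2 change of -1.08 in Molm-14 (adjusted p = 0.014), and of -0.71 without the 4 libraries (adjusted p = 2.1e-05), where the falls of BCAT1 (-0.90) and GOT1 (-0.83) were larger. The transaminase gene GOT1 changed by -0.54 in MV4-11 (adjusted p = 0.0094), and by -0.75 without the 4 libraries. SDHA, a succinate dehydrogenase subunit, changed by -0.73 in SKNO-1 (adjusted p = 0.00027). The gene called higher in Molm-14 was D2HGDH, whose enzyme oxidises D-2-hydroxyglutarate, from 94.4 ± 2.86 to 173.5 ± 27.0 CPM (log2 change 0.87, adjusted p = 0.00018). The counts in MV4-11 and SKNO-1 depended on the 4 libraries. Without them the calls lower were 4 and 7 of the 8 methyl donor genes and 13 and 22 of the 25 around 2-oxoglutarate in MV4-11 and SKNO-1, and 7 and 18 in Molm-14. Over all genes the share called lower in that fit also rose, to 31.3%, 18.1% and 32.1% by line. The medians by line were then -0.47, -0.27 and -0.30 for the methyl donor genes and -0.48, -0.30 and -0.31 for the others.

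Genes of DNA replication are given beside DNMT1 because its activity is tied to S phase. Of 14 S phase genes, 14, 9 and 13 were called lower by line (median log2 change -1.53, -0.59 and -1.42), and 14 of 14 in each line without the 4 libraries. RRM2, a subunit of ribonucleotide reductase, stood at 146.6 ± 2.51, 128.1 ± 42.9 and 159.6 ± 1.03 CPM by line with DMSO and at 35.5 ± 8.93, 62.6 ± 11.8 and 42.6 ± 2.49 with RMC-4550, called lower in all 3. The helicase subunit MCM4, the transcription factor E2F1, the cyclin gene CCNE2 and the licensing factor CDC6 were also called lower in all 3 lines. MCM2, another helicase subunit, fell in Molm-14 from 78.3 ± 7.13 CPM to 31.3, 3.46 and 24.8 CPM (log2 change -2.48, limma adjusted p = 0.014). The lowest of these was again the library of highest mitochondrial share, and without it the change was -1.48, smaller than that of RRM2 (-1.85). The DNMT1 changes of -1.03, -0.40 and -0.68 were smaller in each line than the medians of these genes. Whether the S phase genes account for the change in DNMT1 was not tested.

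**Figure D5:**
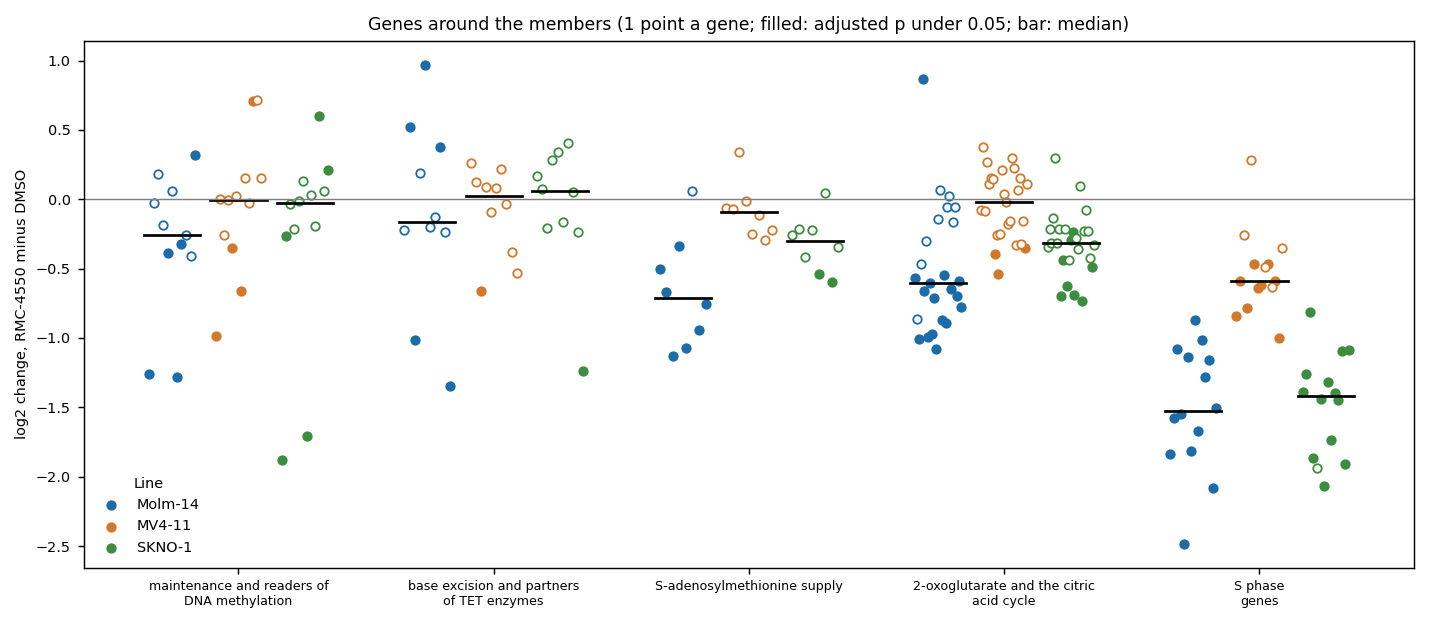
Log2 change with RMC-4550 (vertical axis) of the genes tested in 5 lists around the members, 1 point a gene, by line; filled points have an adjusted p under 0.05 and bars are list medians. The S phase medians lie at -1.53, -0.59 and -1.42, below those of the other lists in each line.

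The genes whose pattern over the 6 group means was most like that of a member were found among 11013 genes with a mean of at least 5 CPM, by the root mean square difference of centred log2 means. For DNMT1 they were the pseudogene YBX1P1 (0.061) and RFC2, a subunit of the clamp loader of DNA replication (0.087). For IDH2 they were HSPBP1 (0.028) and TEX264 (0.051), for TET2 CANX (0.032) and GNPDA1 (0.038), for DNMT3A CEP57 (0.045) and RPP14 (0.046), for IDH1 ZNF37A (0.057), and for TET3 SNX18 (0.059) and CREBL2 (0.063). DNMT3B and TET1 had no gene within 0.1. The nearest to DNMT3B were BMAL1 and STRIP2 (0.165 each), and the nearest to TET1 were MAN1A1 (0.376) and MAST1 (0.43). Within 0.1 there were 9 genes for DNMT1, 40 for TET3, 49 for IDH1, 102 for TET2, 106 for IDH2 and 160 for DNMT3A.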

How the data were processed

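DNA nanoball sequencing was applied to poly(A) RNA of 18 cultures, per the labels' protocols. The submitters' processing notes name FastQC, STAR, limma and GRCh38. The counter, annotation and strand setting are not given in the sources used here. The authors deposited 1 table of log2 values. From the values, each is log2 CPM of reads plus 0.5 in a scaled library (scaling factors 0.89 to 1.113), and whole reads were recovered for 100% of values under 50 reads (tolerance 0.05 reads). Symbols matched 40069 of 40184 IDs. The 16262 genes that reached 1 CPM in 3 or more libraries entered 1 fit with a coefficient for each group in limma 3.58.1 (R 4.3.3, eBayes with a trend, two-sided), and a gene also had to reach this within the line tested. Adjustment was over all genes tested in a contrast. The fit was tested on simulated data. All 8 members were tested in every contrast. Besides them, genes were named by a rule: list genes called the same way in all 3 lines, the largest called rise and fall of a list in each line, and the 2 nearest patterns of each member. Some genes that this rule or the marker lists hold are not reported here. TDG, BCAT1, GADD45A in Molm-14 and ZBTB4 in SKNO-1 were named after their values were seen. The members and lists were chosen with earlier results of these data known. Alternatives were other scalings, filters, fits, a mitochondrial covariate and leaving out libraries. Reads without molecular identifiers are not independent molecules. Figures used matplotlib 3.10.9 in Python 3.11.15.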

Additional observations from a re-analysis of the deposited data

Results flagged for a closer look

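A difference in response between lines passed the test for 3 of the 8 genes. All 3 passed for MV4-11 against Molm-14, where 19.5% of all genes tested were called. For SKNO-1 against the mean of the other lines only IDH1 passed, where 3.8% were called. The DNMT1 change with RMC-4550 was 0.63 higher (0.628) in MV4-11 than in Molm-14, since DNMT1 fell less there. The DNMT3B change was lower in MV4-11 by a log2 difference of -0.47 (-0.471). The IDH1 change was higher in MV4-11 than in Molm-14 by 0.31 (0.313), and higher in SKNO-1 than in the mean of the FLT3-ITD lines by 0.35 (0.351). Among these, the DNMT1 difference kept its call in all 29 alternatives, with values from 0.55 to 0.68. The DNMT3B difference ran from -0.64 to -0.25 and the IDH1 differences from 0.22 to 0.36 and from 0.30 to 0.42, and each of these lost its call in some alternatives.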

How the results depend on the processing

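Of 1848 values of single members under the alternatives, 1707 kept direction and side of the threshold, 64 lost the call, 46 gained it and 31 turned direction, of which 0 were called in the alternative. The number of members called with RMC-4550 was 3 to 5 in Molm-14, 2 to 3 in MV4-11 and 2 to 3 in SKNO-1 over the 18 fits that left out 1 library. It was 2 to 4 for MV4-11 against Molm-14 with DMSO, 4 to 5 for SKNO-1 against Molm-14, 4 to 7 for SKNO-1 against MV4-11, 0 to 1 for the SKNO-1 response against that of the other lines and 1 to 6 for the MV4-11 response against that of Molm-14. The 6 came without replicate 2 of MV4-11 with DMSO. That fit called 5893 of 13458 genes for this contrast, against 2620 in the main fit. A separate fit per line gave 1 in MV4-11, 5 in SKNO-1 and 1 for the MV4-11 against Molm-14 response. Over all genes it called 671 of 14739, 8209 of 14670 and 1092 of 13458, against 2045, 3969 and 2620 in the main fit. The covariate gave 4 in MV4-11, 5 in SKNO-1 and 4 for MV4-11 against Molm-14 with DMSO. With it 5054 of 14739, 7270 of 14670 and 8773 of 15252 genes were called, against 2045, 3969 and 8249 in the main fit. Without the 4 libraries of high mitochondrial share there were 4 in SKNO-1, where 7818 of 14670 genes were called. Counts that involve MV4-11 are left out here for that fit, since its lone DMSO culture was assumed to vary like the other groups. No filter gave 0 and 1 for the SKNO-1 and MV4-11 response contrasts, and eBayes without a trend gave 0 for SKNO-1.

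Whether replicate numbers pair the cultures cannot be settled with 3 libraries a group. Same-numbered libraries correlated at -0.675 to 0.591 in their deviations, with 5 of 45 pairs over 0.1, and 3 of 9 within a line. Of 18 libraries, 6 correlated best with their own number among the 3 of the other group of their line. With the replicate block the response contrasts called 0 members (SKNO-1 against the mean) and 1 (MV4-11 against Molm-14, DNMT1), and TET2 in SKNO-1 against MV4-11 with DMSO lost its call (adjusted p = 0.055).

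Directions turned as follows, always without a call, and the cause was not tested. With RMC-4550 in SKNO-1, TET2 was 0.054 under median-ratio scaling, 0.107 under quantile normalization and 0.024 with the covariate, and IDH2 was 0.005 under median-ratio scaling. With RMC-4550 in MV4-11, TET2 was -0.144 with the covariate, and without the 4 libraries TET2 was -0.078, TET1 -0.021 and IDH2 -0.04. For MV4-11 against Molm-14 with DMSO, DNMT1 was 0.029 and TET1 -0.372 under quantile normalization, TET3 was 0.059 with the covariate, and DNMT1 was 0.041 and TET3 0.05 without the 4 libraries. DNMT1 for SKNO-1 against MV4-11 with DMSO was -0.039 without the 4. For the response of MV4-11 against Molm-14, DNMT3A was -0.063 under quantile normalization, -0.177 with the covariate and -0.084 without the 4, and TET2 was -0.121 with the covariate and -0.047 without the 4. When single libraries were left out, the values that turned ran from -0.04 to 0.314 (TET2 in MV4-11), -0.044 to 0.058 (TET2 in SKNO-1), -0.021 to 0.073 (IDH1 in SKNO-1), -0.359 to 0.471 (TET1 for MV4-11 against Molm-14 with DMSO), -0.057 to 0.192 (DNMT3A response) and -0.06 to 0.177 (TET2 response of SKNO-1). Depth limits TET1 most, at 14 to 122 reads in the FLT3-ITD lines.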
